A study of Rattus norvegicus with 28 samples.

Results

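Hippocampal gene expression was compared between injured rats given Prozac (fluoxetine) and injured rats given Zoloft (sertraline), using the 3 TBI+Prozac and 3 TBI+Zoloft gene expression arrays among the 28 samples of the series, of which 14 are gene expression arrays. All animals were male Sprague-Dawley rats and each array held RNA of a whole hippocampus taken 24 h after traumatic brain injury (TBI) by parasagittal fluid percussion, a pressure pulse on the exposed dura, or after sham surgery. Both drugs were injected once, 1 h after the injury and at the same intraperitoneal dose, so that dose and time matched. The other groups set beside them were Sham (2 arrays), TBI with vehicle (3 arrays) and TBI+Imipramine, a tricyclic antidepressant at the same dose and times (3 arrays). No group was an uninjured rat given a drug, and a single early dose differs from the weeks of dosing used to treat depression. The methods give 3 rats a group and each title carries its own number; where arrays do not come from separate rats, the p-values measure technical spread.

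Fluoxetine and sertraline are both selective serotonin reuptake inhibitors (SSRIs). They block the serotonin transporter Slc6a4, which takes serotonin back into the axon terminal, so that more of it reaches its receptors. In the hippocampus these include the inhibitory receptor Htr1a, dense on pyramidal cells, and the excitatory Htr2 receptors and Htr7. Serotonin neurons have their cell bodies in the raphe nuclei, so the mRNAs of the transporter and of the synthesis enzyme Tph2 are made outside the hippocampus. The molecules differ in structure: fluoxetine has an open propylamine chain with a trifluoromethyl-phenoxy group, whereas sertraline holds its amine on a fused tetralin ring with a dichlorophenyl group. Both end in an N-methyl secondary amine.

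Values are log2 of a probe's processed signal over the 75th percentile of its own array, so 0 equals that percentile. A probe was called where limma's Benjamini-Hochberg adjusted p was under 0.05. Of 17322 probes kept, 639 were called between the drugs (3.69%). The calls lay almost all on one side, with 625 higher after Prozac (3.61%) and 14 higher after Zoloft (0.0808%). The median difference of the called probes was 0.72 in size. The median of all kept probes was itself 0.11 higher after Prozac under this scaling, so differences are also given relative to that median. The 75th percentile of signal before scaling was 1875 ± 65.1 on the Prozac arrays and 1415 ± 80.9 on the Zoloft arrays (SD, n = 3 each), with no overlap (two-sided exact permutation p = 0.1, the smallest that 3 against 3 allows). The called probes higher after Prozac had a median level of -2.77, below the -2.07 of all kept probes. The part of this brightness gap in the calls was not tested. With the median of every array made equal, 258 probes were called, 170 of them (65.9%) higher after Prozac in place of 97.8%.

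TBI+Prozac replicate 1 was hybridised on slide 1 together with the TBI arrays, whereas the other Prozac arrays and all Zoloft arrays were on slide 2. Without it, no probe was called by limma, and 2751 (15.9%) had an unadjusted p under 0.05, 2402 of them (13.9%) higher after Prozac, against 3640 (21%) with it. All 639 called probes kept their direction and an unadjusted p under 0.05 without that array, and the median difference of the 625 higher after Prozac went from 0.72 to 0.68. For the 638 called probes without overlap between the groups, leaving out an array could not change the direction. The probes were also chosen with that array included. Prozac replicate 1 was the highest Prozac array for 352 of the 625, the lowest for 115 and between the others for 158. Leaving out other arrays gave 26 calls without Prozac replicate 2, 57 without Prozac replicate 3, 675 without Zoloft replicate 1 and 3 without Zoloft replicate 2. A fit with slide as a fixed block was the same as leaving out the array, because Prozac replicate 1 alone joins the slides.

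**Figure D1:**
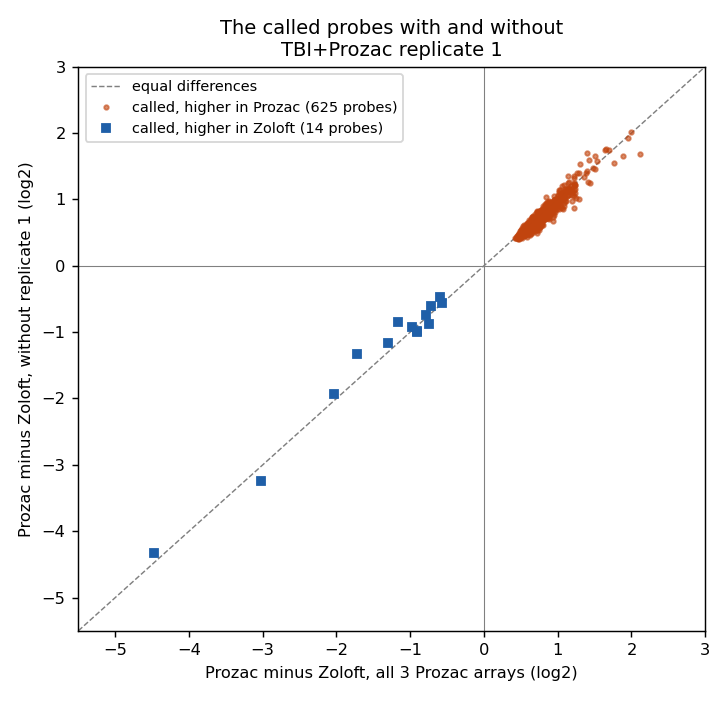
Each point is one of the 639 called probes, with its Prozac minus Zoloft difference (log2) from all 3 Prozac arrays on the x axis and without TBI+Prozac replicate 1 on the y axis. The 625 probes higher after Prozac and the 14 higher after Zoloft lie along the dashed line of equal differences, and none crosses 0. For the 638 without overlap between the groups, crossing 0 was not possible.

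Zoloft replicate 3 stood apart from the other arrays. Its correlation with the other Prozac and Zoloft arrays over all kept probes was 0.970 to 0.978, while every other pair reached 0.982 to 0.992. It was the lowest Zoloft array for 266 of the 625 probes higher after Prozac, against 222 for replicate 2 and 137 for replicate 1. Without it 481 probes were called, 332 of them among the 639.

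Htr1a, the serotonin receptor through which serotonin hyperpolarises hippocampal pyramidal cells, was higher after Prozac. Its log2 levels were -3.70, -3.56 and -3.69 on the Prozac arrays (replicates 1 to 3) and -4.47, -4.41 and -5.59 on the Zoloft arrays. The groups did not overlap, and Zoloft replicate 3 was lowest. The difference was 1.18 ± 0.25 (SE; 2.26-fold; 1.06 relative to the median of all probes; limma adjusted p = 0.0295), and 1.2 without Prozac replicate 1. Maob, the monoamine oxidase of glia and serotonin neurons, read -0.60, -0.80 and -0.56 after Prozac and -1.15, -1.40 and -1.74 after Zoloft, again without overlap. It was higher after Prozac by 0.78 ± 0.17 (adjusted p = 0.0307). With normexp background correction Htr1a differed by 0.47 and was not called (adjusted p = 0.126), and without Zoloft replicate 3 it differed by 0.79 (adjusted p = 0.0229) while Maob was no longer called (0.62, adjusted p = 0.0601).

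These were 2 of the 10 measured members of a list of 22 serotonin genes, against 3.69% of all probes, and no member was called higher after Zoloft. The median of the 10 was 0.38, or 0.27 relative to all probes. The excitatory Htr2c did not separate the drugs, with a difference of -0.03 and a 95% interval from -1.20 to 1.14. Its levels were -0.80, -1.10 and -1.35 after Prozac and -0.59, -0.72 and -1.84 after Zoloft. Htr2c is also a gene of the choroid plexus, and its highest arrays, Zoloft replicates 1 and 2 and Prozac replicate 1, were also those highest in the choroid plexus genes described below, whose part in it was not tested. The ion channel receptor Htr3a, carried by interneurons, differed by -0.40 (95% interval -0.89 to 0.10) and the vesicular transporter Slc18a2 by -0.27 (-1.49 to 0.94). Htr3a did not overlap between the drugs, at -1.62, -1.75 and -1.71 after Zoloft and -2.27, -1.83 and -2.17 after Prozac. It was the 1 measured member without overlap and higher after Zoloft (4.37% of all probes). In the other direction there were 4 (21.2% of all probes). Ddc, which makes serotonin and dopamine from their precursors, was above background on 2 of 3 Zoloft arrays and read -3.21, -4.17 and -6.19 there, against -3.08, -3.15 and -2.75 after Prozac. It was not called (adjusted p = 0.173). Slc6a4, Htr2a, Htr7, Tph2 and 8 other members were not well above background on all arrays of any group and were not tested.

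Genes of the excitatory synapse were among the calls. Gria1, a subunit of AMPA receptors, which carry fast glutamate transmission, read -0.73, -0.76 and -0.65 after Prozac and -1.97, -1.83 and -1.57 after Zoloft. Every Prozac array lay above every Zoloft array. The difference was 1.07 ± 0.18 (2.10-fold, adjusted p = 0.0163). Gria2, the subunit that keeps AMPA receptors closed to calcium, was higher after Prozac by 0.60 ± 0.13 (adjusted p = 0.0321), at 1.75 to 1.89 against 1.1 to 1.32. A second Gria2 probe differed by 0.48 and was not called (adjusted p = 0.163). The metabotropic receptors Grm5 and Grm7, which signal through G proteins, were higher by 0.86 (adjusted p = 0.0196) and 0.84 (adjusted p = 0.0299). In all, 4 of 21 measured glutamate receptor genes were called, all higher after Prozac, as were 3.61% of all probes. The list median of 0.21 was 0.09 relative to all probes, and Gria3, another AMPA receptor subunit, differed by 0.09 (95% interval -0.20 to 0.38). The NMDA receptor subunits Grin1, Grin2a and Grin2b differed by 0.72, 0.73 and 0.11 and were not called. With normexp correction Gria1 was still called (0.91, adjusted p = 0.0309), whereas Grm5 (0.29) and Grm7 (0.39) were not, and without Zoloft replicate 3 the calls of Gria2 and Grm7 were lost (adjusted p = 0.0656 and 0.0619).

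Inhibitory receptor subunits were also among the calls, in the same direction. Gabra5, the GABA-A receptor subunit typical of hippocampal extrasynaptic receptors, read -1.59, -1.54 and -1.68 after Prozac and -2.22, -2.27 and -2.24 after Zoloft, without overlap. Its difference was 0.64 ± 0.11 (1.56-fold, adjusted p = 0.0176). Gabra2, a synaptic subunit, was higher after Prozac by 1.1 ± 0.23 (adjusted p = 0.0292). In all, 3 of 16 measured GABA genes were called, all higher after Prozac, against 3.61% of all probes (and 97.8% of all calls lay in that direction), with a list median of 0.38 (0.26 relative to all probes). Gad1, the main GABA-synthesising enzyme, differed by -0.15 (95% interval -0.57 to 0.27), and the vesicular transporter Slc32a1 by -0.09. Neither marker of GABA neurons was called. None of the 3 calls held with normexp correction, where Gabra2 differed by 0.49 and Gabra5 by 0.53, and without Zoloft replicate 3 Gabra5 alone was called (adjusted p = 0.0318).

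Among markers of hippocampal neurons, Neurod6, a transcription factor of pyramidal cells, was the member called of 17 measured, a share near the 3.69% of all probes. It read 1.32, 1.46 and 1.30 after Prozac and 0.69, 0.80 and 0.63 after Zoloft, a difference of 0.65 ± 0.11 (adjusted p = 0.0178). Camk2a, the kinase of the excitatory postsynaptic density, also did not overlap between the drugs, at -1.02 to -1.13 against -1.86 to -2.08, but the difference of 0.90 was not called (adjusted p = 0.0625). The list median was 0.30, or 0.19 relative to all probes. In a whole hippocampus, fewer neurons and less RNA per neuron cannot be told apart. In the oligodendrocyte and myelin list 15 of 16 members had a higher mean after Prozac (13 relative to the median of all probes) and none was called. The myelin enzyme Cnp came nearest, with 1.0 ± 0.27 (adjusted p = 0.0634). Its lowest array was Zoloft replicate 3, at -1.02, and without that array the list median fell from 0.38 to 0.08.

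**Figure D2:**
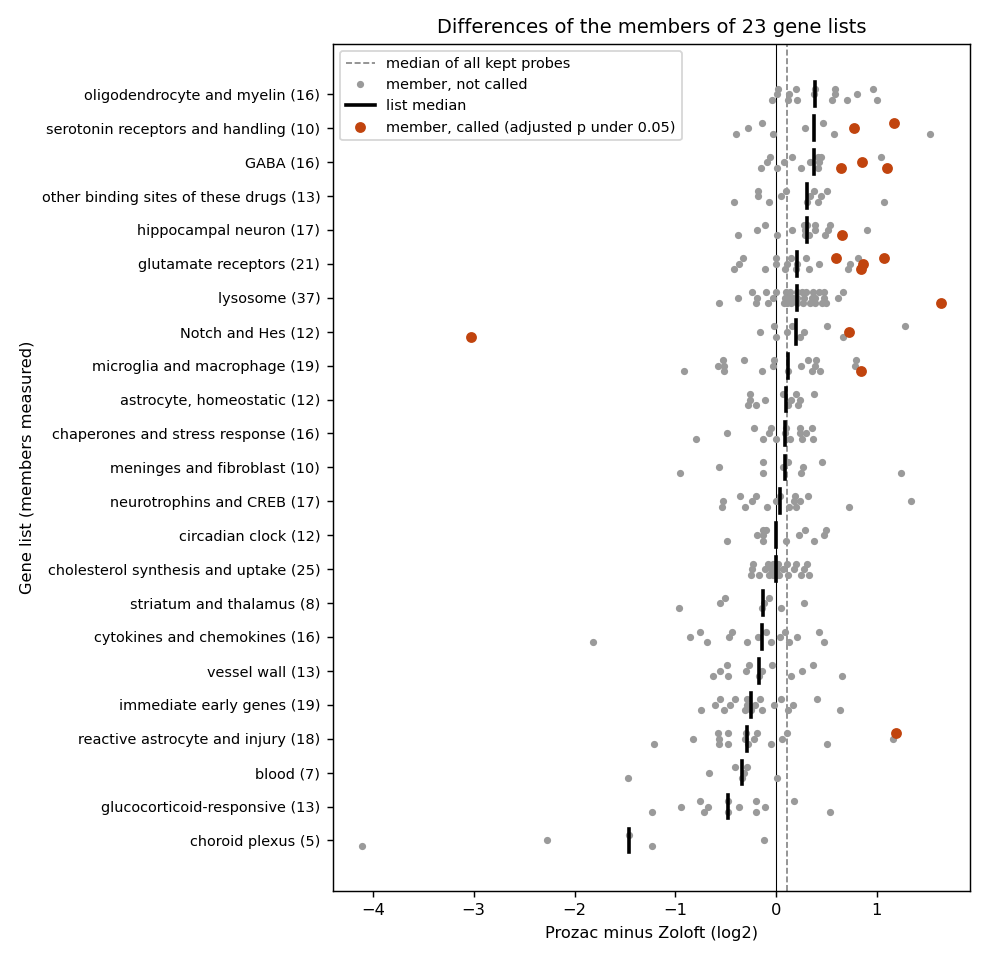
Prozac minus Zoloft differences (log2, x axis) of every measured member of 23 gene lists, with list medians as black bars and called members in orange. The highest medians are 0.38, in the oligodendrocyte, serotonin and GABA lists, and the lowest is -1.46, in the choroid plexus list, whose 5 members spread widely.

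Several called genes lay outside the receptor lists. Ctbs, a lysosomal chitobiase that trims glycoproteins, had the largest difference of the genes called and above background on all 6 arrays, taking the brightest probe of each gene. It read -3.18, -3.28 and -2.47 after Prozac and -4.33, -4.59 and -4.94 after Zoloft, 1.64 ± 0.32 higher after Prozac (3.12-fold, adjusted p = 0.0225). It was the one member called of 37 lysosomal genes, whose median was 0.20 (0.09 relative to all probes). Qki, an RNA-binding protein needed for myelination, differed by 1.23 (adjusted p = 0.0244). Vim, the intermediate filament of reactive astrocytes, read 0.07, -0.27 and 0.22 against -0.98, -1.31 and -1.27, a difference of 1.19 ± 0.29 (adjusted p = 0.0452). It was the sole call among 18 reactive astrocyte genes, whose median was -0.29 (-0.01 without Zoloft replicate 3), and Gfap, the classic astrocyte filament, differed by -0.05. Csf1r, the growth factor receptor of microglia, was higher after Prozac by 0.84 (adjusted p = 0.0382), 1 of 19 microglial genes, with a list median of 0.12. Single calls among 37, 18 and 19 members are near the 3.69% of all probes. With normexp correction Ctbs differed by 0.96 and was not called (adjusted p = 0.0634), and without Zoloft replicate 3 Vim (adjusted p = 0.0874) and Csf1r (adjusted p = 0.0596) were not called.

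Other genes of this group were Ccnd1, a cyclin of the G1 phase (1.15), Sh3gl3, an endophilin (1.14), Pcdh19, a protocadherin (1.13), Gng7, a G protein subunit (1.12), and Masp1, a complement protease (1.08). Gng7 read -2.95 to -2.99 after Prozac and -3.93 to -4.22 after Zoloft (adjusted p = 0.0145).

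**Figure D3:**
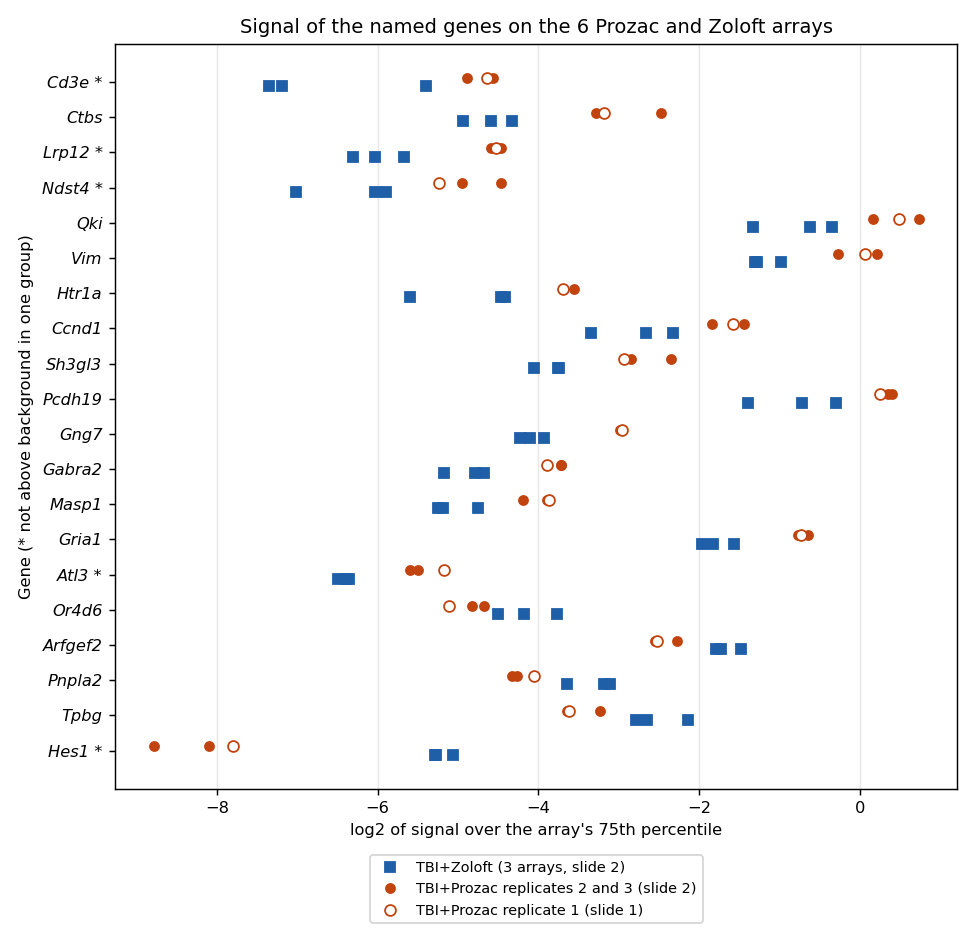
log2 signal over the array's 75th percentile (x axis) for 20 genes named by rule, on each Prozac array (circles, replicate 1 open) and Zoloft array (squares). The groups do not overlap for any gene shown, which was a condition of the rule for all of them. Genes with an asterisk were not above background on any array of the lower group.

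Hes1, a transcriptional repressor that Notch signalling switches on and that keeps neural stem cells undifferentiated, was called higher after Zoloft. It read -5.29, -5.06 and -5.27 on the Zoloft arrays and -7.80, -8.10 and -8.79 on the Prozac arrays, where it was not well above background. Because the Prozac values give only a limit, its level in the deposited processed signal was at least 2.62-fold higher after Zoloft. The limma test was of the difference between the readings, -3.02 for Prozac minus Zoloft (adjusted p = 0.0146). The limit sets the mean of the Zoloft arrays against the dimmest signals still above background on the Prozac arrays and was not itself tested. That limit holds for this background subtraction alone: with normexp correction the difference was smaller, -0.97, and still called (adjusted p = 0.00924). Its other groups lay between, at a mean of -6.23 in Sham, -7.82 in TBI and -6.01 in TBI+Imipramine. The TBI mean lay below the dimmest signals still above background on the TBI arrays (-5.69, -6.56 and -6.45), so it too gives only a limit. Hey1, another repressor of the Notch pathway, was higher after Prozac by 0.72 (adjusted p = 0.028), but it was near background, above it on 1 of 3 Zoloft arrays, and its difference was -0.00183 with normexp background correction. Of the 10 remaining measured genes of the Notch list none was called. Notch1, Notch3 and the cofactor Rbpj differed by -0.02, 0.00 and 0.24.

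The promoter of Hes1 is shown because Notch acts on it through the DNA-binding protein RBPJ, and that of Neurod6 because it is the neuronal marker called. Both are RefSeq starts on the rat build GRCr8, each 300 bases long with 250 before the start, written on the gene's strand; 44 of the 61 genes named by rule had an entry, and Htr1a and Gria1 were not among them. In Hes1 (chr11:84212996-84213295, minus strand) the capitals mark the RBPJ core TGGGAA, searched on both strands. In Neurod6 (chr4:86180106-86180405, minus strand) they mark the palindromic cyclic AMP response element TGACGTCA.
Hes1: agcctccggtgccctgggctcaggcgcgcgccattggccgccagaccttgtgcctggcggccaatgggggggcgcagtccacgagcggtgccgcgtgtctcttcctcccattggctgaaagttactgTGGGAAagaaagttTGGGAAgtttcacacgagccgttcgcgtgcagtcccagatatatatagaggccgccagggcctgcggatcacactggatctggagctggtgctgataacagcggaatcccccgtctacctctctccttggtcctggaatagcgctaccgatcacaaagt
Neurod6: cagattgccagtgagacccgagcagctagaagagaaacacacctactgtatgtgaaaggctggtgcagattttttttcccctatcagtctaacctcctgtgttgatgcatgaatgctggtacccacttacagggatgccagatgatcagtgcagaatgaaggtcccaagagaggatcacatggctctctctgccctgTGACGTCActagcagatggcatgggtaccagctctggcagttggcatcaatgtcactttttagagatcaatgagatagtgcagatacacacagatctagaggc

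The Hes1 window holds the RBPJ core at 2 places, starting 123 and 109 bases before the start site. This core occurs in 25.7% of all 33469 promoters and in 22.9% of those of genes with a kept probe. The Neurod6 window holds the cyclic AMP response element once, 53 bases before the start. This element occurs in 1.83% of all promoters, in 3.26% of those of genes with a kept probe and in 4.35% of those called higher after Prozac. These matches are descriptions and do not show that a factor was bound.

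After Zoloft, 4 more genes above background on all 6 arrays were called higher. They were Tpbg, a membrane glycoprotein that dampens Wnt signalling (0.98 higher, adjusted p = 0.0343), Pnpla2, the triglyceride lipase (0.91, adjusted p = 0.0429), Arfgef2, an exchange factor of vesicle transport (0.78, adjusted p = 0.0292), and the olfactory receptor Or4d6 (0.72, adjusted p = 0.0439). Arfgef2 read -1.79, -1.73 and -1.47 after Zoloft and -2.52, -2.54 and -2.28 after Prozac. The 14 probes called higher after Zoloft included 8 without a gene name and a probe of the cadherin Cdh23, which was below background on 1 Prozac array.

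Probes above background on all arrays after Prozac and on none after Zoloft added 4 genes by rule. Lrp12, a receptor of the lipoprotein receptor family, was 2.78-fold higher (adjusted p = 0.0145). It read -4.53, -4.59 and -4.46 after Prozac and -6.31, -5.67 and -6.03 after Zoloft. These Zoloft readings lay above the dimmest signals still above background on their arrays, so the fold is a plain estimate and not a limit. Cd3e, a chain of the T-cell receptor complex, was at least 2.64-fold higher (adjusted p = 0.0389), Ndst4, an enzyme of heparan sulphate synthesis, at least 2.40-fold (adjusted p = 0.0413). Their adjusted p-values are from limma on the readings, and the limits themselves were not tested. Atl3, an atlastin of the endoplasmic reticulum, differed by 0.99 (adjusted p = 0.0444). These differences and limits hold for the deposited background subtraction alone. With normexp correction none of the 4 was called, with differences of 0.40 for Lrp12, 0.41 for Cd3e, 0.23 for Ndst4 and -0.03, the opposite sign, for Atl3.

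No gene of the glucocorticoid-responsive list was called, and most had a higher mean after Zoloft. Of 13 measured, 11 had a higher mean after Zoloft, and the list median was -0.48 (-0.59 relative to all probes). The groups did not overlap for 5 members higher after Zoloft, where 4.37% of all probes did so, and for 1 higher after Prozac, where 21.2% did (25.6% in either direction). Sgk1, a kinase induced by corticosterone, read 1.01, 1.44 and 1.17 after Zoloft and 0.69, 0.05 and 0.05 after Prozac. Its difference of -0.94 ± 0.26 missed the threshold (adjusted p = 0.0641), as did that of the sulfotransferase Sult1a1 (-1.23, adjusted p = 0.0518). Fkbp5, the cochaperone that restrains the glucocorticoid receptor, differed by -0.76 (adjusted p = 0.0816) and Ddit4, an inhibitor of mTOR signalling, by -0.72 (adjusted p = 0.0859). The receptor Nr3c1 itself differed by -0.11, and the mineralocorticoid receptor Nr3c2 by 0.53 in the other direction. The median was -0.54 without Prozac replicate 1 and -0.37 without Zoloft replicate 3, where Sult1a1 was called (-1.46, adjusted p = 0.0431).

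**Figure D4:**
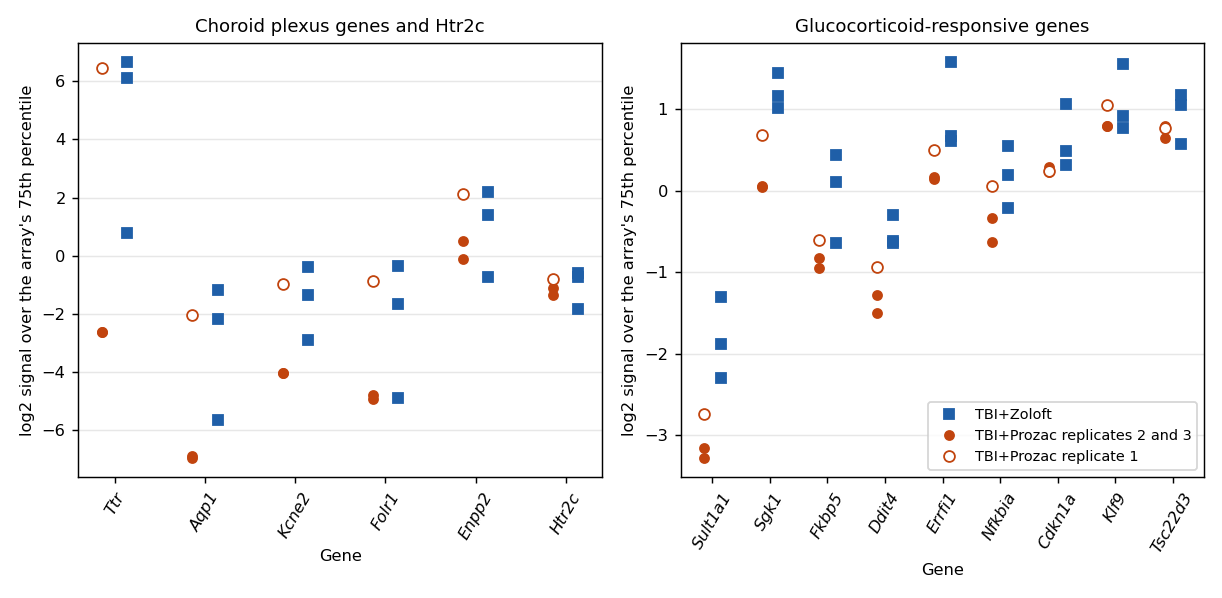
log2 signal over the array's 75th percentile (y axis) of choroid plexus genes with Htr2c (left) and of glucocorticoid-responsive genes (right) on each Prozac array (circles, replicate 1 open) and Zoloft array (squares). Ttr spans -2.63 to 6.44 within the Prozac group, while Sgk1, Sult1a1 and Ddit4 are higher on all Zoloft arrays than on any Prozac array.

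Markers of tissue beside the hippocampus varied between arrays of the same group, and the source of this spread was not tested. Ttr, the transport protein that marks choroid plexus epithelium, read 6.44, -2.61 and -2.63 on the Prozac arrays and 6.11, 6.65 and 0.78 on the Zoloft arrays. The mean level of the 5 measured members of the 16 choroid plexus markers was 0.94, -3.74 and -3.56 after Prozac and 0.45, 1.38 and -2.68 after Zoloft. Prozac replicate 1 and Zoloft replicates 1 and 2 were thus the high arrays, and the groups overlapped for every member. Kl, Otx2 and 8 other markers were not well above background on all arrays of any group. The list median was -1.46, and -2.56 without Prozac replicate 1. Blood markers also ran higher after Zoloft without a call; the neutrophil gene S100a8 read -0.92, -0.07 and 0.61 after Zoloft and -1.02, -2.34 and -1.43 after Prozac (adjusted p = 0.214).

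Zoloft replicate 3 was also high in the immediate early genes, which neurons switch on within minutes of activity. Their mean level was -0.32 on that array, -1.51 and -1.74 on the other Zoloft arrays and -1.03 to -1.67 on the Prozac arrays. Arc, which acts at active synapses, read 2.07 there and -0.67 and -1.15 on its fellow arrays. None of the 19 measured members was called, and the list median moved from -0.25 to 0.26 without that array and to -0.45 without Prozac replicate 1.

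No member was called in 15 of the 23 lists. Among these were cholesterol synthesis and uptake, which cationic drugs are known to disturb, with 25 members between -0.25 and 0.32 and a median of 0.00, and the circadian clock, with 12 members and a median of 0.00. The neurotrophin and CREB list had a median of 0.04 over 17 members. In it Ntf3, the neurotrophin-3 of granule cells, differed by 1.34 (adjusted p = 0.0507) and Sort1, a sorting receptor for neurotrophins, by 0.72 (adjusted p = 0.0525), while its second probe differed by -0.07. The receptors and transporters that these drugs bind beside Slc6a4 had a median of 0.31 over 13 members and no call. Misses of the threshold do not show that the drugs acted alike on these genes.

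The following genes were chosen after their values were seen and support no pattern. Dlg4, the scaffold PSD-95 of excitatory synapses, read -2.54, -2.44 and -2.65 after Prozac and -3.31, -3.30 and -3.32 after Zoloft (0.77 ± 0.12, adjusted p = 0.0159). Nsf, the ATPase that recycles vesicle fusion proteins, was higher after Prozac by 1.0 ± 0.17 (adjusted p = 0.0174). For Hspa8, a chaperone of clathrin uncoating, the probes disagreed. One probe differed by 1.22 and another by 1.15 (adjusted p = 0.0145 for both), whereas the brightest differed by 0.24 and the remaining probe by 0.27. This gene has many near-identical copies, so its probes are uncertain. Over the 151 genes with several kept probes and a call higher after Prozac, 127 of the 157 probes not called were also higher after Prozac, and 98 exceeded the median of all probes. Of all kept probes, 65.4% were higher after Prozac, and by definition as many lie above that median as below it.

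The other groups place these differences. Side by side, and sharing the TBI arrays, 1 probe was called between TBI+Prozac and TBI (0.00577%), 239 between TBI+Zoloft and TBI (1.38%) and 494 between TBI+Imipramine and TBI (2.85%). Between TBI+Imipramine and TBI+Zoloft 917 were called (5.29%), 910 of them higher after imipramine (5.25%), and between TBI+Imipramine and TBI+Prozac 1 (0.00577%). Before scaling, the 75th percentile was 1905, 2053 and 1575 on the imipramine arrays and 1446, 1323 and 1475 on the Zoloft arrays. These did not overlap, and the part of this gap in the 917 calls was not tested. The contrasts with TBI set slide 2 against slide 1, apart from Prozac replicate 1. Slide and treatment thus cannot be told apart for Zoloft and imipramine against TBI. The Sham arrays were alone on slide 3, so slide and Sham cannot be told apart either. The 625 probes higher after Prozac had a median of 0.30 against TBI after Prozac and -0.41 after Zoloft, where all kept probes had 0.15 and 0.01. These 625 were chosen on the same arrays for Prozac above Zoloft, so a gap between their medians was fixed in advance. The TBI mean was nearer to Prozac for 412 and nearer to Zoloft for 213, and the imipramine mean was nearer to Prozac for 586. The Sham mean went the other way, nearer to Zoloft for 415 and to Prozac for 210. Over all 17322 kept probes, the mean was nearer to Prozac for 9593 in TBI, 11251 in TBI+Imipramine and 7442 in Sham. Those probes were not chosen by their difference between the drugs, so the counts are not a like comparison with the 625.

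By gene, Neurod6 had means of 1.36 in Sham, 1.17 in TBI, 1.23 in TBI+Imipramine, 1.36 in TBI+Prozac and 0.71 in TBI+Zoloft. Htr1a lay at -3.64, -3.99, -3.90, -3.65 and -4.82 in the same order. For both, Zoloft was the lowest group, and neither was called against TBI after Zoloft (adjusted p = 0.0688 and 0.122). Gria1 differed from TBI by 0.61 after Prozac and -0.46 after Zoloft, neither called. Ctbs, at -1.63, was called lower than TBI after Zoloft (adjusted p = 0.0327) and differed by 0.01 after Prozac. Hes1 was called higher than TBI after Zoloft (adjusted p = 0.0236), where its TBI level gives only a limit. Arfgef2 was also called higher than TBI after Zoloft (0.93, adjusted p = 0.0271). Vim was 3.09 higher in TBI than in Sham (limma adjusted p = 0.000185), where slide and injury cannot be told apart. Its level after Prozac and Zoloft lay 0.39 above and 0.80 below that of TBI, neither called (limma adjusted p = 0.679 and 0.200).

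**Figure D5:**
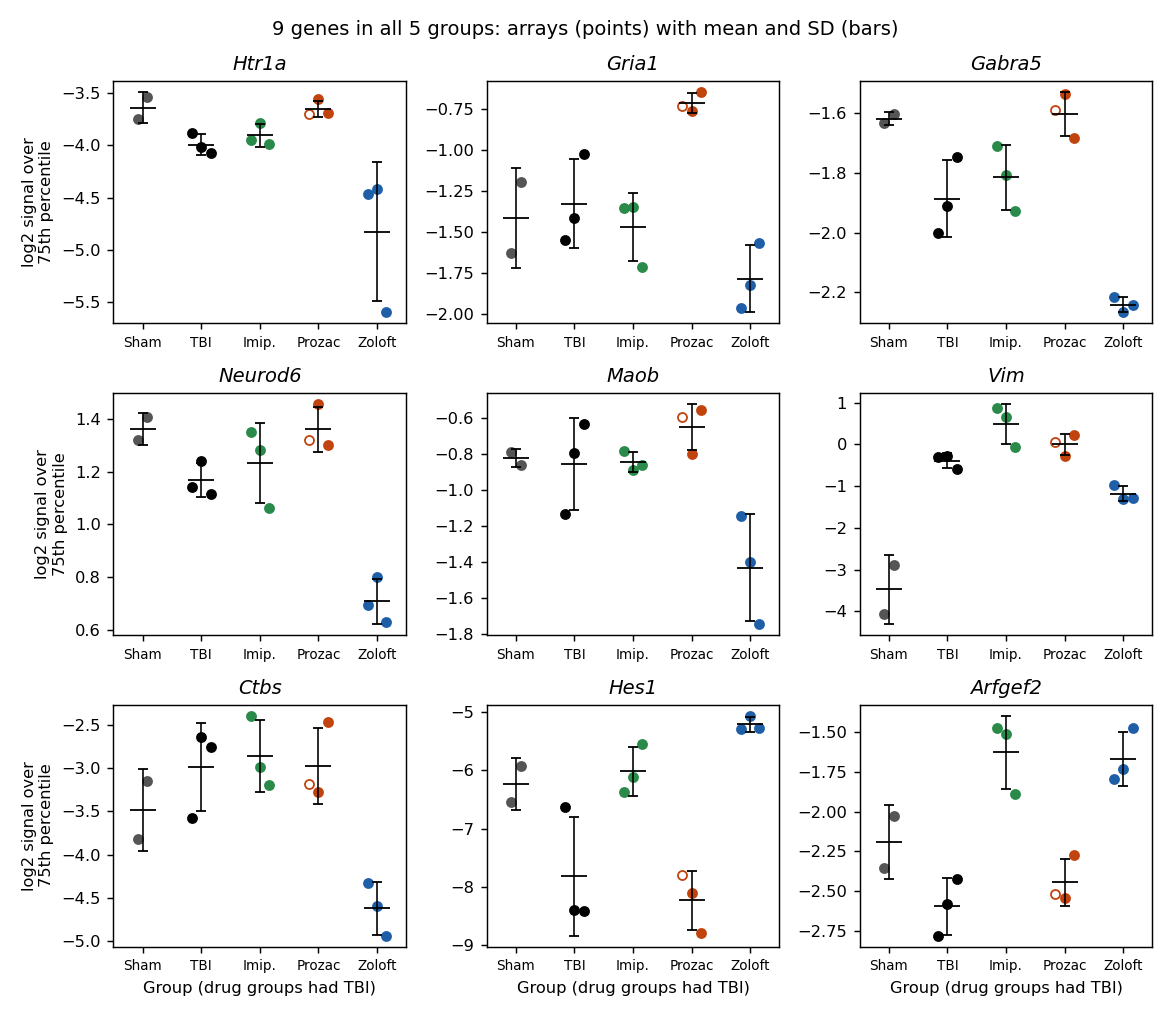
log2 signal over the array's 75th percentile (y axis) of 9 called genes on every array, with 2 in Sham and 3 in each of the injured groups; bars give the mean and SD, and TBI+Prozac replicate 1 is open. Zoloft is the lowest group for Htr1a, Gria1, Gabra5, Neurod6, Maob and Ctbs, and the highest for Hes1.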

How the data were processed

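Single-colour Agilent rat arrays were analysed, 1 per hippocampus. The authors scanned them and deposited the Feature Extraction 11.5.1.1 output, whose processed signal intensity is background-subtracted. The deposited flags (other columns) mark control, outlier and well-above-background spots. A deposited series table of processed intensities, with its own scaling, was put on the log2 scale and served as an alternative. The small number of arrays limits precision, and the part of signal level in it was not tested.

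Control and outlier spots were dropped, spots of a probe averaged, and signals divided by each array's 75th percentile over probes above background, then put on the log2 scale. Of 30367 probes, 17322 above background on all arrays of at least 1 group were kept. limma 3.58.1 in R 4.3.3 was fitted to all 14 arrays, with Benjamini-Hochberg adjustment at 0.05, and was tested on simulated data. normexp correction (offset 50) used median signals.

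Genes were named by rule from their RefSeq symbols, one probe each (the highest mean). These were the 12 called genes with the largest difference in each direction, above background on all 6 arrays, without overlap and with the same direction without Prozac replicate 1. To them came the 4 largest one-sided bounds in each direction, among genes also called and without overlap. Per gene list, up to 4 called members were added, or else the 2 with the smallest p. Slc6a4, Htr1a, Htr2a, Htr2c and Htr7 were given where measured. Members and lists were chosen with earlier results of these data known. The microRNA arrays were not used here. Some results that the rule named are not reported here.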

Additional observations from a re-analysis of the deposited data

How the results depend on the processing

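The 639 calls (97.8% higher after Prozac) became 417 with quantile normalization (73.4%), 331 with the 75th percentile of all probes (71.9%), 258 with medians made equal (65.9%), 109 with normexp (93.6%) and 288 in the series table (71.5%). There was 1 call without a filter on dim probes, 1 with the 6 Prozac and Zoloft arrays alone in the fit and 0 with slide as a fixed block. The methods' t-test gave 2596 unadjusted with its fold limit and 1 after Benjamini-Hochberg adjustment. The replicate numbers did not pair the samples (correlations of deviations -0.12, 0.02 and -0.02), and with the number as a replicate block 117 were called. Leaving out 1 array gave 0 to 675 calls. All 639 kept their direction under these limma fits, except that normexp kept 622. Much of this was fixed in advance. Without a filter or with the 6 arrays alone, each probe's difference is that of the main fit, and the replicate block barely alters it. The rescalings moved the median of all kept probes from 0.11 to -0.0549 at most, while the smallest called difference was 0.43 in size. Leaving out an array could not change the direction of the 638 without overlap between the groups. The cause of the changes in count and direction was not tested. The median of all kept probes, 0.11, became -7.31e-05 with quantile normalization, -0.0365 with the percentile of all probes, -0.0549 with medians made equal, 0.00858 with normexp, -0.0414 in the series table and -0.0457 without a filter. Over the gene lists 15 members were called, against 8 with medians made equal, 5 with normexp, 5 with the replicate block, 0 without a filter, with the 6 arrays alone or with the slide block, and 0 to 18 leaving out 1 array. With normexp Atl3 (-0.0314) and Hey1 (-0.00183) changed sign.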
